A study of Mus musculus with 2 samples.

Results

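Complement is a blood and tissue defence system of secreted proteins that are cut in sequence on a target surface. The 9 genes described here encode 5 of its components (C2, C3, C4b, Hc and Cfb) and 4 of its regulators (Cfi, Serping1, Cd55 and Cd59a), and were chosen by symbol. All 9 were found among the 24369 gene rows of the table. The samples were alveolar type 2 cells (type II pneumocytes, the surfactant-making cells of the lung) sorted from wild-type (WT) C57BL6 mice, as 1 library of mice at postnatal day 7 (P7) and 1 library of mice at postnatal day 28 (P28). Whether a library pooled animals, and which markers were sorted on, is not given in the sources used here. Levels are given in RPKM, a read number divided by gene length and by library depth.

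With 1 library per age there was no replicate and no test, so "higher" and "lower" compare 2 libraries. Intervals in parentheses after a ratio are 95% exact counting intervals, which cover counting error only. The spacing of the lowest values put about 17600000 reads behind the RPKM of P7 and 24600000 behind P28. The total RPKM was 108758 and 143071, and scaling both libraries to the same total multiplied each P28 to P7 ratio by 0.760 and shifted the all-gene median log2 ratio from -0.08 to -0.36. The 10 most abundant genes of each library held 27.9% of its total at P7 and 44.0% at P28, which weighs on this scaling. The female-specific RNA Xist had 52.7 RPKM at P7 and 0.245 at P28, while the Y-linked gene Ddx3y was listed at 0 and at 4.01, so sex and age cannot be told apart wherever the libraries differ. Fewer cells of a type and less RNA per cell cannot be told apart either in RNA from many cells. All 10 type 2 markers examined were abundant, from 60.1 to 13343 RPKM at P7 and from 47.5 to 24085 RPKM at P28.

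The classical route starts when C1q binds antibody or a microbe and its partner proteases cut C4 and C2, and the lectin route starts with collectins and ficolins. The alternative route runs on C3 itself together with factor B. All routes meet at C3 and then at C5, whose cleavage releases an attractant for leukocytes and starts the terminal pore. Host cells are shielded by soluble regulators such as factor I and C1 inhibitor, and by surface regulators such as CD55 and CD59. The liver makes most of the circulating proteins, and lung epithelium is known as a local source of some of them.

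The 9 genes fell into 3 abundant and 6 scarce ones, the same ones in both libraries. Hc, the mouse gene of complement component C5, was by far the most abundant, at 193 RPKM at P7 and 276 at P28. C3 (22.1 and 25.9 RPKM) and Cd55 (23.1 and 23.2 RPKM) followed at similar levels. These 3 genes held 98.0% of the summed RPKM of the 9 genes at P7 and 98.2% at P28, and Hc alone held 79.4% and 83.3%. Serping1 and Cd59a lay between 1.47 and 2.44 RPKM. C2, C4b, Cfb and Cfi stayed below 1 RPKM in both libraries.

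**Figure D1:**
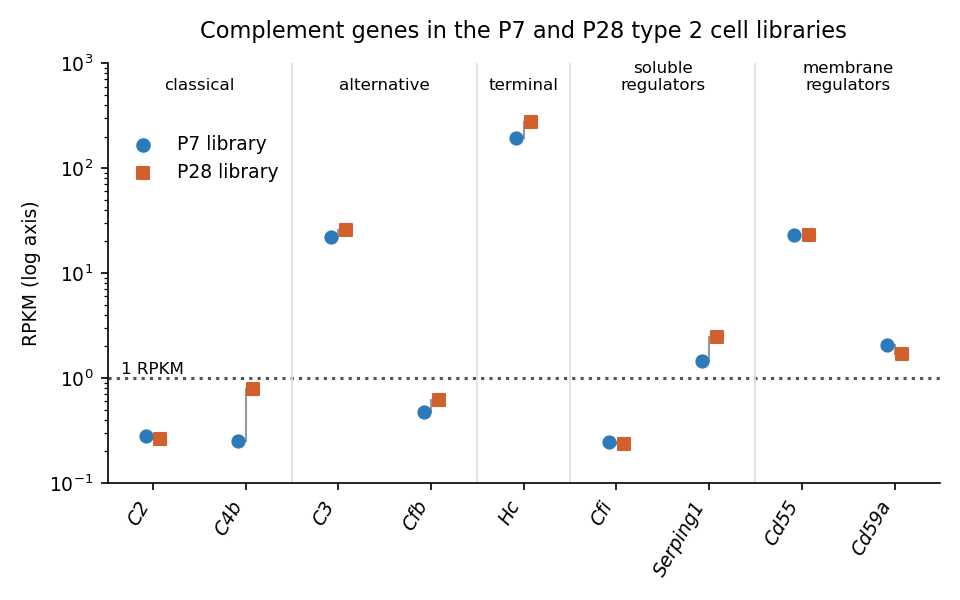
RPKM (log axis) of the 9 complement genes, grouped by role, with circles for the P7 library and squares for the P28 library. Hc stands at 193 and 276 RPKM, C3 and Cd55 stand between 22.1 and 25.9, and C2, C4b, Cfb and Cfi lie below the dotted line at 1 RPKM.

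Hc (chromosome 2, 34983331 to 35061438, minus strand, GRCm38 as for all positions here, protein coding) ranked 32nd of all rows at P7 and 25th at P28. It held 0.178% of the total RPKM at P7 and 0.193% at P28, and its level was 3.13 and 4.24 times that of Abca3, the surfactant lipid transporter gene. About 18491 reads at P7 and 36973 at P28 gave a ratio of 1.43 (1.40 to 1.45). With both libraries at the same total the ratio was 1.09 (1.07 to 1.11). Hc was therefore higher at P28 on both scales, by less than the 2-fold used as a call. Only 0.556% of the 50-base windows of its transcript also occur in a transcript of another gene, Gm13449, so sharing with annotated transcripts touches few of its reads.

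The sequence upstream of the start site was read for the abundant members, as the genomic context of the genes that carry nearly all of the signal. RefSeq start sites (GRCm38.p6) were listed for 4 of the 9 genes, namely Hc, C3, Cd55 and Cd59a. Bases are printed 5′ to 3′ on the gene's strand, ending just before the start site, or for Hc 26 bases earlier, where an annotated exon begins. Capitals mark matches to the motifs named below. The windows are chr2:35061439-35061662 (minus strand) for Hc, chr17:57228137-57228386 (minus strand) for C3 and chr1:130462745-130462994 (minus strand) for Cd55.
Hc: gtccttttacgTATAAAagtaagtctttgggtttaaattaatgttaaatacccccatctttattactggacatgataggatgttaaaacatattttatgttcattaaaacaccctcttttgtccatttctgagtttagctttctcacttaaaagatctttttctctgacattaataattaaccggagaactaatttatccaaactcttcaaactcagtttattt
C3: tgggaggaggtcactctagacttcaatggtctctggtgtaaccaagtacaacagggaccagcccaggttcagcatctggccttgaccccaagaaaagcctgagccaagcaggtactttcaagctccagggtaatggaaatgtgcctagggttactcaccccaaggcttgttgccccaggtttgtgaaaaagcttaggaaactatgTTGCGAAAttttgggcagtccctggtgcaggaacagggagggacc
Cd55: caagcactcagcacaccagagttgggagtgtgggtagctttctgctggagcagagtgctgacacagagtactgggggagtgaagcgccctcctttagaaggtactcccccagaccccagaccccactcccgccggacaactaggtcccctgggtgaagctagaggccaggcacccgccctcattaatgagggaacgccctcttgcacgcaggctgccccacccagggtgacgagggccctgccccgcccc

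The 3 sequences differ most in base composition. GC content was 29.0% for Hc, 52.0% for C3 and 64.0% for Cd55, where the median of 32851 RefSeq upstream windows of 250 bases was 52.4% (quartiles 45.2% and 61.2%). Hc has 2 CpG pairs, C3 has 1 and Cd55 has 8, against a median of 6. Motifs were searched on both strands, and no matches overlapped in these windows. C3 held 1 match to the C/EBP motif TTGCNNAA that begins 45 bases before the start, and 9.56% of all windows hold this motif. Hc held 1 match to the core promoter motif TATAAA, far upstream at 239 bases before the start, and 12.4% of all windows hold it. Cd55 and Cd59a held no match to either. No window of the 4 genes held the CCAAT box (in 33.8% of all windows), the STAT motif TTCCNGGAA (0.913%), the NKX2-1 motif CAAGTG (11.6%) or an NF-kB motif (1.41%). A match describes letters and not a binding site.

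C3 (chromosome 17, 57203970 to 57228136, minus strand, protein coding) encodes the protein at which all routes meet. It had 22.1 RPKM from about 1993 reads at P7 and 25.9 RPKM from 3279 reads at P28, a ratio of 1.18 (1.11 to 1.24). At the same total RPKM this became 0.894 (0.845 to 0.945), so the direction of C3 depends on the scaling. Its log2 ratio stayed above 0 with the all-gene median set to 0 (0.31) and at the same upper quartile (0.26). It was also above 0 (0.20) at the same total without the 10 most abundant genes. The relation between C3 and Hc does not depend on the scaling, since both are scaled alike. Hc had 8.75 times the RPKM of C3 at P7 and 10.6 times at P28, and the counting intervals of their ratios do not overlap. None of the 50-base windows of C3 occurs in another gene.

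Cfb (chromosome 17, 34856374 to 34862518, minus strand, protein coding) encodes factor B, which joins C3b to form the alternative convertase. It had 0.475 RPKM at P7 and 0.622 at P28, from about 22.9 and 41.9 reads, a ratio of 1.31 (0.768 to 2.28). The RPKM of C3 was 46.4 times that of Cfb at P7 and 41.7 times at P28. The listed levels of the transcripts for these partner proteins of the alternative route were thus far apart at both ages. Most of the 50-base windows of Cfb also occur in a read-through transcript, described below, which limits this comparison. No difference between the ages was detectable for Cfb at this depth.

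C2 and C4b encode the components that C1s or a MASP cuts to build the classical and lectin convertase. C2 (chromosome 17, 34862604 to 34898265, minus strand, protein coding) had 0.279 and 0.261 RPKM, from about 13 and 17 reads, a ratio of 0.936 (0.428 to 2.10). C4b (chromosome 17, 34728380 to 34743882, minus strand, protein coding) had 0.248 RPKM from about 23.5 reads at P7 and 0.780 RPKM from 103 reads at P28. Its ratio of 3.14 (1.99 to 5.15) was the largest of the 9 genes, and it was 2.39 (1.52 to 3.92) at the same total. C4b did not reach the 1 RPKM needed to enter the comparison with all genes, and on the log2 scale of RPKM + 1 its difference was 0.51.

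C4b has a close copy, C4a, on the same chromosome, and short reads can be assigned to either. Over the 5207 aligned bases of the C4b coding sequence the C4a transcript is 96.1% identical, with 201 different bases and identical runs of up to 433 bases. In 35.2% of the 50-base windows of the C4b transcript the same letters occur in C4a. The stretch of 60 bases that differs most is printed as GENCODE M21 has it, with the 13 different bases in capitals, because reads there can tell the copies apart. In C4b it lies in the coding sequence at chr17:34735430-34735489, minus strand.
C4b: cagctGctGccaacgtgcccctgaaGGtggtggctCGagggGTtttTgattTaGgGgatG
C4a: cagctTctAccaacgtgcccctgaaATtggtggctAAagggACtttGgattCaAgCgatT
C4a itself had 0.0681 RPKM at P7 and 0.0192 at P28, from about 2.92 and 1.15 reads. With so few reads no difference was detectable for C4a. How the authors' program split shared reads is not given in the sources used here.

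C2, Cfb, C4b and C4a lie within 170 kb of each other (34728380 to 34898265 on chromosome 17), in the part of the major histocompatibility region that also holds unrelated genes. Within 100 kb on either side, 11 of 18 other protein-coding genes with a row reached 1 RPKM in at least 1 library, with medians of 0.966 RPKM at P7 and 1.42 at P28 over the 18. The complement genes of the cluster were below these medians in both libraries. A GENCODE read-through transcript, Gm20547, holds 58.0% of the 50-base windows of C2 and 81.8% of those of Cfb. It had no row and was not analysed here. How reads shared with Gm20547 were counted is not known, which limits the levels given for C2 and Cfb. No other gene holds windows of C2 or Cfb.

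Among the soluble regulators, Serping1 (chromosome 2, 84765387 to 84775444, minus strand, protein coding) encodes C1 inhibitor, the serpin that blocks C1r, C1s and the MASPs. It had 1.47 RPKM from about 45.6 reads at P7 and 2.44 RPKM from 106 reads at P28. The ratio was 1.66 (1.16 to 2.40), and 1.26 (0.884 to 1.83) at the same total, where its interval includes 1. Cfi (chromosome 3, 129835884 to 129875332, plus strand, protein coding) encodes factor I, the protease that inactivates C3b and C4b. It had 0.247 and 0.235 RPKM, from about 9 and 12 reads, a ratio of 0.955 (0.370 to 2.56). With so few reads a 2-fold difference in either direction lies within its interval.

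The surface regulators differed in level more than between ages. Cd55 (chromosome 1, 130439027 to 130462744, minus strand, protein coding) encodes decay-accelerating factor, which takes apart the convertases on the cell's own membrane. It had 23.1 RPKM from about 1031 reads at P7 and 23.2 RPKM from 1446 reads at P28, a ratio of 1.00 (0.924 to 1.09) as deposited and 0.761 (0.703 to 0.826) at the same total. Cd59a (chromosome 2, 104095801 to 104115354, plus strand, protein coding) encodes a lipid-anchored inhibitor of the terminal pore. It had 2.07 and 1.68 RPKM, from about 63.6 and 72.2 reads, a ratio of 0.811 (0.571 to 1.15), and 0.616 (0.434 to 0.878) at the same total. Cd55 had 11.2 times the RPKM of Cd59a at P7 and 13.8 times at P28. Of the 50-base windows, 15.5% of those of Cd55 and 3.98% of those of Cd59a also occur in other genes, mainly their neighbours Cd55b and Cd59b. The RPKM of Hc was 8.34 times that of Cd55 at P7 and 11.9 times at P28, and this does not depend on the scaling.

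**Figure D2:**
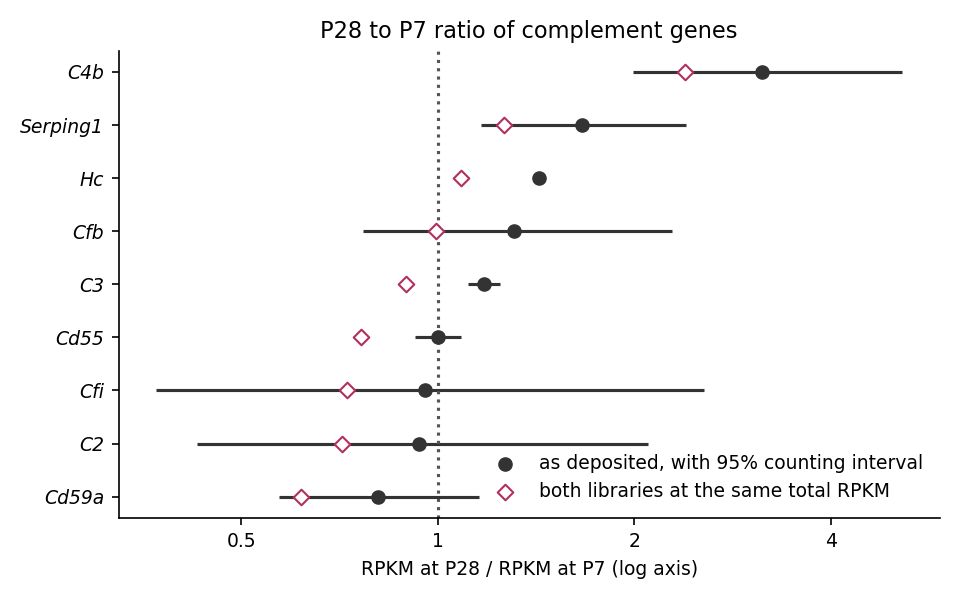
Ratio of RPKM at P28 to RPKM at P7 (log axis) for each gene, as deposited with its 95% counting interval (filled circles and bars) and with both libraries at the same total RPKM (open diamonds). The bar of Hc is narrower than its symbol. C4b, Serping1, Hc and C3 have bars wholly above 1 as deposited, and the diamond of C3 lies below 1.

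Set against all genes, the 9 complement genes contributed no call. Of the 9653 genes that reached 1 RPKM at P7 or P28, 1.18% were called higher at P28 and 1.96% lower, a call being a ratio of (RPKM + 1) of 2 or beyond. The 5 complement genes that passed this filter were Hc, C3, Cd55, Serping1 and Cd59a, and 0 of them were called in either direction. With so low a share over all genes, 0 of 5 says little about these genes as a group. Their log2 ratios were 0.51 for Hc, 0.48 for Serping1, 0.22 for C3, 0.00 for Cd55 and -0.20 for Cd59a, with a median of 0.22 where all genes had -0.08. In the order of log2 ratios from the highest, Hc was 565th, Serping1 638th, C3 1704th, Cd55 3755th and Cd59a 6293rd of the 9653. As deposited, the counting interval was wholly above 1 for Hc, C3 and Serping1, as it was for 18.0% of the 9568 genes with a transcript length, and wholly below 1 for none of the 5, against 33.3% of all. At the same total the interval of Hc was above 1, as for 5.19% of these genes, and those of C3, Cd55 and Cd59a were below 1, as for 67.7%. The interval of C4b, which is not among them, was above 1 on both scales.

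**Figure D3:**
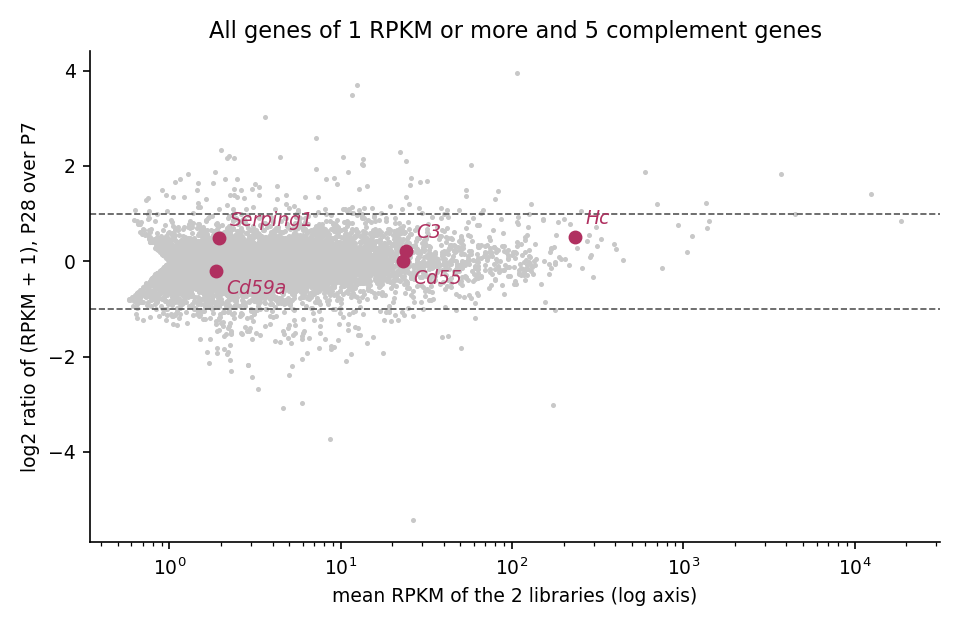
Log2 ratio of (RPKM + 1) at P28 over P7 against the mean RPKM of both libraries (log axis) for genes that reached 1 RPKM at either age (grey), with the 5 complement genes that passed this filter in colour. All 5 lie between the dashed lines at 2-fold, from -0.20 for Cd59a to 0.51 for Hc.

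The rest of the pathway was taken from a list of 58 complement genes by role, all with a row. Of the 49 rows other than the 9 genes above, 10 reached 1 RPKM. By the ratio of (RPKM + 1), 1 was called higher at P28, 1 was called lower and 8 lay within 2-fold. Over all genes 1.18% were called higher and 1.96% lower. With 10 genes, 1 call in each direction says little about the list. The higher gene was C7. It encodes a terminal component and had 0.168 RPKM at P7 and 1.34 at P28, a ratio of 7.97 (3.85 to 19.2), and its log2 ratio of 1.00 just met the call and was 0.79 at the same total. The lower gene was Cd93, a surface receptor found on endothelium, with 8.15 and 2.65 RPKM, a 3.08-fold lower level (2.75 to 3.46).

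The terminal components were very unequal. Beside Hc, C6 had 15.8 RPKM at P7 and 19.2 at P28, a ratio of 1.21 (1.11 to 1.32) that turned to -0.11 on the log2 scale at the same total. C8g had 0.138 and 0.329 RPKM. C8a and C8b, which encode further parts of the pore, were listed at 0 in both libraries, and C9, the subunit that lines it, at 0 and 0.0230 RPKM. The 2 abundant terminal genes were thus the first to act in the chain.

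Genes that start the classical and lectin routes were scarce. C1qa, C1qb and C1qc were listed at 0 in both libraries, where 3 reads would have given 0.164, 0.157 and 0.142 RPKM at P7. Masp1 and Mbl2 were listed at 0 as well. The protease genes C1ra (0.370 and 0.530 RPKM) and C1s1 (0.418 and 0.952 RPKM) and the lectin gene Mbl1 (0.738 and 0.441 RPKM) stayed below 1 RPKM. Colec12, a scavenger collectin, was the only gene of this group to reach 1 RPKM, with 0.983 and 1.67. Within the alternative route, the genes of factor D (Cfd, listed at 0 and at 0.0877 RPKM) and properdin (Cfp, 0.261 and 0.534 RPKM) were also low. C3 stood alone in that group above 1 RPKM.

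Other regulators ranged from moderate levels to below 1 RPKM. With Serping1 and Cfi counted, 4 of 8 soluble regulators stayed below 1 RPKM in both libraries. Clu, whose product clusterin binds the forming pore, had 9.74 and 14.4 RPKM, a ratio of 1.48 (1.29 to 1.70). At the same total the interval of Clu includes 1. Cpn1, a subunit of the carboxypeptidase that inactivates anaphylatoxins, had 1.14 and 2.13 RPKM, and C1qbp had 6.48 and 5.97. On the membrane side, Cr1l (Crry, the rodent regulator of C3 convertases) had 11.3 and 11.5 RPKM and Thbd had 4.80 and 4.58. Of the 50-base windows of Cr1l, 28.6% also occur in another gene, Crry-ps. Susd4 had 3.74 and 1.86 RPKM, a plain ratio of 0.497 (0.397 to 0.622) that lies within 2-fold on the scale of RPKM + 1, and Cd46, which in mice is largely confined to the testis, had 0.281 and 0.369. Of the 10 membrane regulators 5 reached 1 RPKM and 0 were called in either direction, where 3.14% of all genes were. With so low a share, 0 of 5 says little about membrane regulators as a group. Among the anaphylatoxin receptor genes, C3ar1 was low, with 0.106 and 0.151 RPKM from about 8 and 16 reads. C5ar1 (0.0221 and 0 RPKM) was near the limit of detection, and C5ar2 had 0.627 and 0.857 RPKM. The receptor genes were thus far below Hc and C3, which encode the precursors of their ligands.

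**Figure D4:**
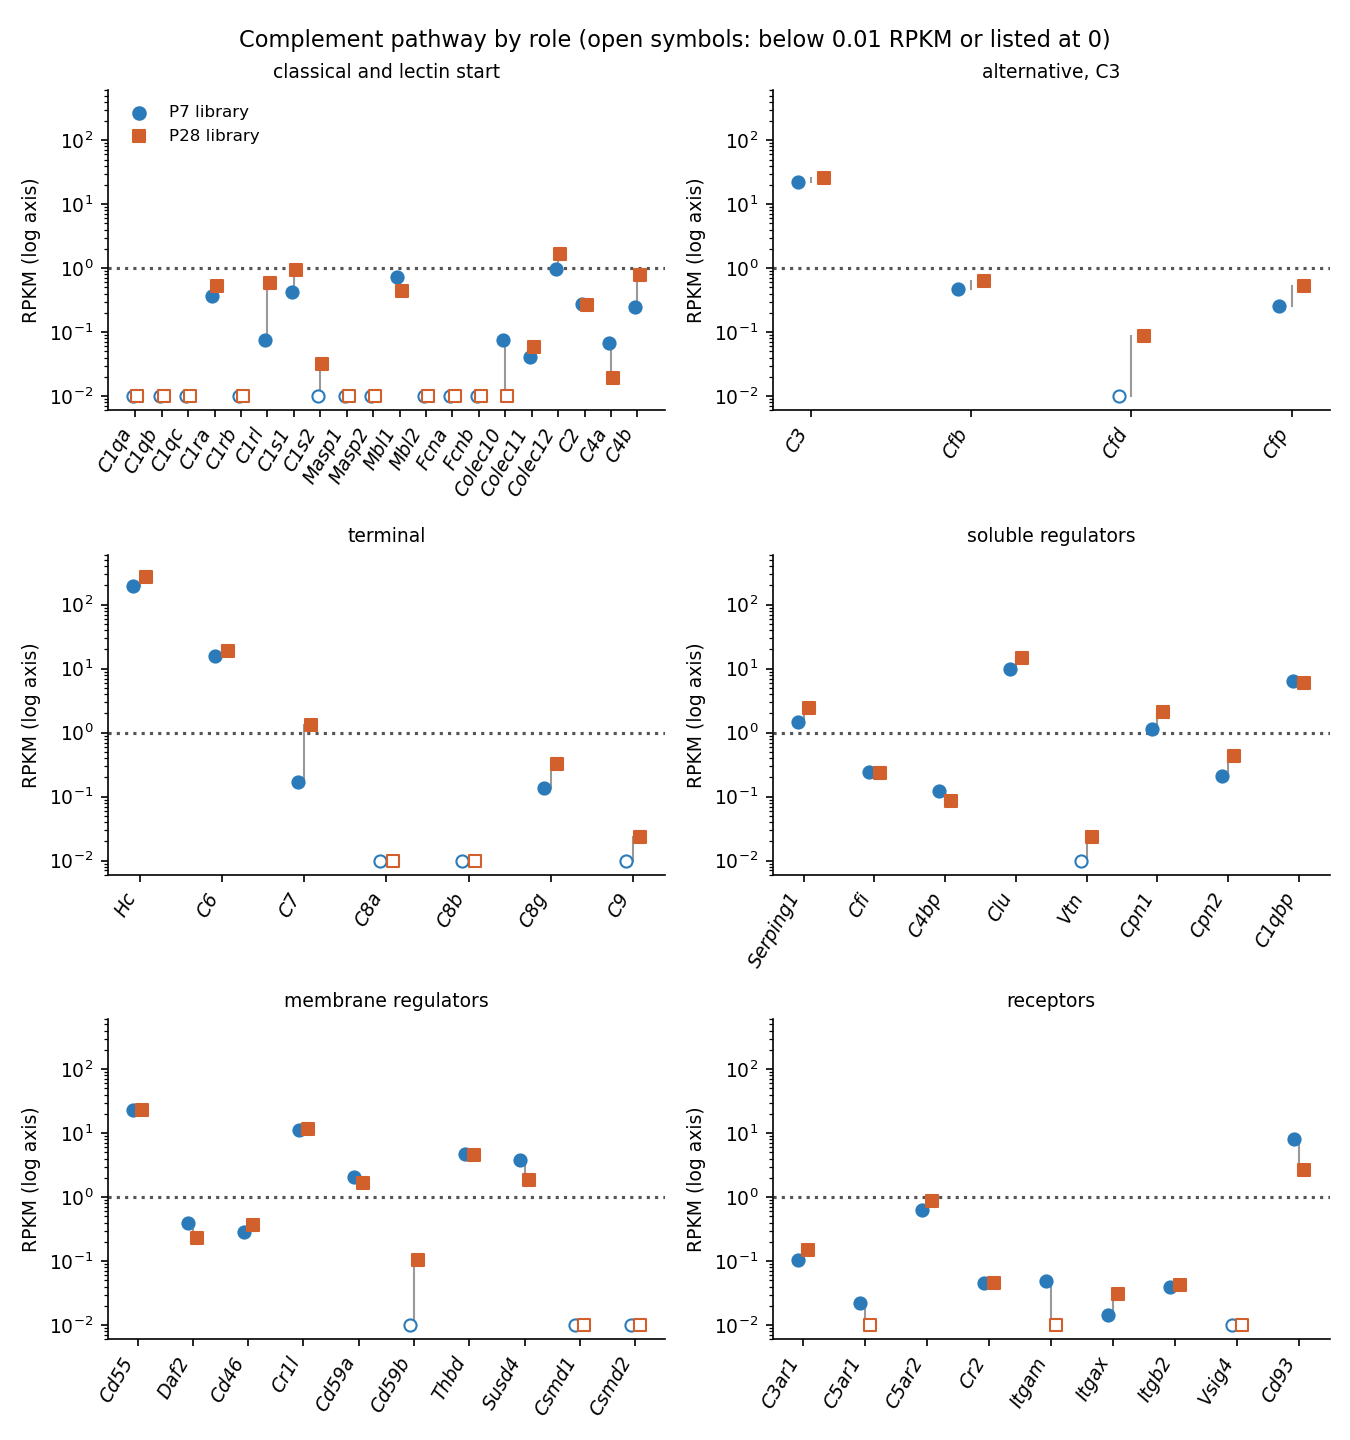
RPKM (log axis) of 58 complement genes in 6 groups by role, with circles for P7 and squares for P28, and open symbols for values below 0.01 RPKM or listed at 0. Daf2 is the table's name for Cd55b. Values above 10 RPKM belong to Hc, C3, Cd55, C6, Cr1l and, at P28, Clu.

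Several other cell types make complement proteins, and their markers were read beside these results. Macrophages are the usual source of C1q, and beside C1qa, C1qb and C1qc, which were themselves on the marker list, 3 of 9 other macrophage markers (Marco, Adgre1 and Siglecf) were listed at 0 in both libraries. Csf1r (2.23 and 1.49 RPKM) and Cd68 (0.455 and 1.08 RPKM) were detected. The summed level of the 12 markers was 3.46 RPKM at P7 and 3.04 at P28. Hepatocytes are the main source of circulating C3 and C5, and the hepatocyte markers Apoa1, Ahsg and Fgb were listed at 0 in both libraries while Alb had 1.53 and 0.617 RPKM. Trf, which other cells express too, had 84.9 and 36.4 RPKM.

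Fibroblasts and endothelium express C7, C4b, Serping1, C1s1 and related genes in many tissues, and their markers differed between the libraries. The 10 fibroblast markers summed to 27.2 RPKM at P7 and 13.4 at P28, with 4 higher and 6 lower at P28. Among those higher were Dcn (0.490 and 1.35 RPKM), Pdgfra (0.152 and 0.730 RPKM) and Inmt (listed at 0 and at 2.31 RPKM). Among those lower were Col1a1 (2.78 and 1.19 RPKM) and Fbln5 (10.6 and 2.08 RPKM). All 8 endothelial markers were lower at P28, with sums of 43.2 and 15.4 RPKM. The 6 mesothelial markers summed to 24.3 and 15.3 RPKM, with 2 higher and 4 lower, and no mesothelial marker was at 0. The part of these cells in the levels of C4b, Serping1, C7 and Cd93 was not tested.

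Airway secretory cells can express C3, and all 8 airway secretory markers had a higher RPKM at P28, summing to 7246 RPKM at P7 and 19051 at P28. Scgb1a1 made up most of both sums (6764 and 18104 RPKM). Of the 8 markers 6 were called higher, where 1.18% of all genes were, with a median log2 ratio of 1.54 and of 1.15 at the same total. Scgb3a2 (277 and 302 RPKM) had the lowest log2 ratio of the 8, which turned to -0.27 at the same total. Its ratio of 1.09 (1.04 to 1.14) as deposited was below those of C3 and Hc, while that of Scgb1a1 was 2.68 (2.65 to 2.70). The part of airway cells in the levels of C3 and Hc was not tested. The 7 ciliated cell markers summed to 213 and 207 RPKM, and the 8 type 1 cell markers to 346 and 212 RPKM with 7 lower. The 7 neutrophil markers stayed below 1 RPKM, and 6 of the 7 lymphocyte markers did.

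**Figure D5:**
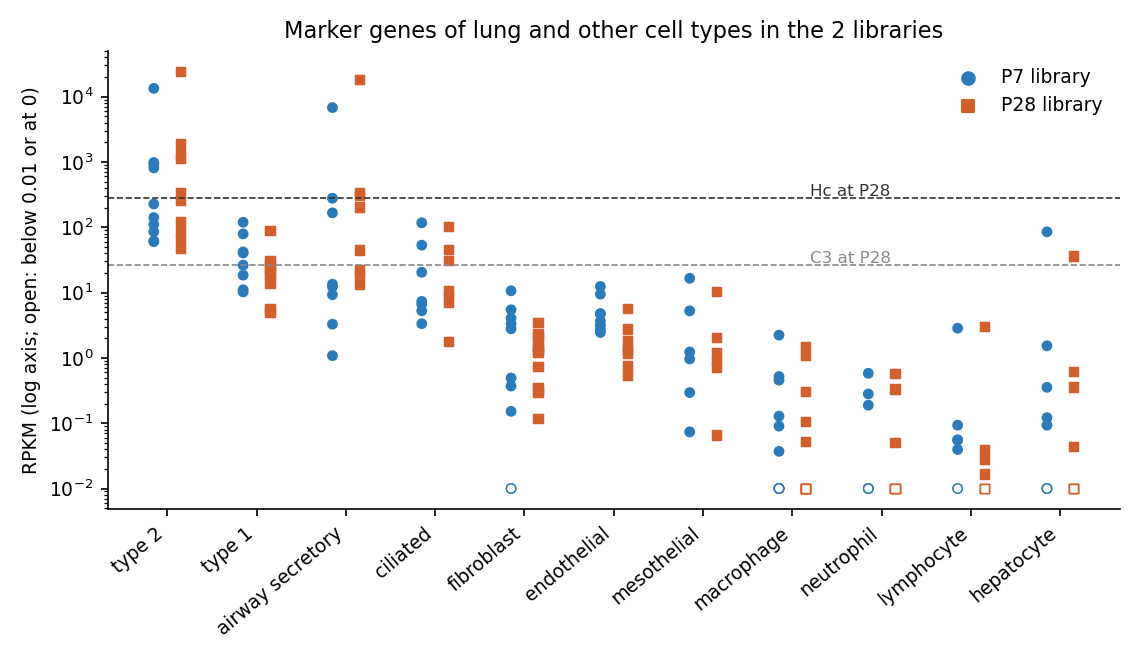
RPKM (log axis) of each marker gene of 11 cell types, with circles for P7 and squares for P28, open symbols for values below 0.01 RPKM or at 0, and dashed lines at the P28 levels of Hc and C3. Macrophage, neutrophil, fibroblast and endothelial markers lie below the C3 line in both libraries.

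Complement genes are known to respond to interferon gamma, IL-6, IL-1 and TNF, so the receptors and factors of these routes were read as well. Of 19 such genes 18 reached 1 RPKM and 0 were called in either direction, where 3.14% of all genes were, with a median log2 ratio of 0.13 and of -0.17 at the same total. The most abundant were the IL-6 family receptor gene Il6st (12.7 and 15.9 RPKM), Stat3 (11.5 and 14.0 RPKM), Ifngr1 (7.74 and 7.36 RPKM) and Jak1 (8.05 and 6.98 RPKM). Of 14 acute phase and secreted defence genes 5 reached 1 RPKM, of which 3 were called higher at P28 and 0 lower, where 1.18% of all genes were called higher. These were Itih4 (4.63 and 22.1 RPKM), Lrg1 (6.21 and 19.5 RPKM) and the haptoglobin gene Hp (29.6 and 77.7 RPKM), and Hp lost its call at the same total, with a log2 ratio of 0.97. Of the 14 genes 8 had a higher RPKM at P28 and 3 a lower one, and 3 (Saa1, Saa2 and Fgb) were listed at 0 in both libraries. Among the uncalled genes, Cp had 2.57 and 4.86 RPKM, a ratio of 1.89 (1.60 to 2.24). Saa3 (0.428 and 0.0766 RPKM) and Hpx (0.192 and 0.0824 RPKM) had lower values at P28 from few reads, and the intervals of both ratios include 1. Lcn2, which encodes an iron-binding defence protein, had 158 and 196 RPKM.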

How the data were processed

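Total RNA of sorted cells was reverse transcribed, made into Nextera XT libraries and read from both ends on an Illumina instrument, per the labels' protocols. Per the submitters' processing notes, TopHat and TopHat2 2.0.9 and the builds GRCm38 and mm10 were used, in roles not stated. The values the authors deposited are RPKM, with 1 column for each library. Their RPKM program, annotation, filters and use of strand were not found in the sources used here. At P7 90 values and at P28 109 values, such as 7.31e-28 for Masp2 at P7, lay above 0 but far below 1 read, so some values are estimates and not whole reads.

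Lengths, positions and transcripts came from GENCODE M21 (GRCm38), using transcripts linked to a RefSeq RNA where a gene had any, and their mean length. Low values times length were whole multiples of 1 step, to within 0.05, in 54.6% of 3290 genes of a single length at P7. At P28 they were so in 50.8% of 3564, but only 13.6% and 14.3% of genes with several lengths were. In each library the step was chosen to make the share of single-length genes largest. The 10% that a fixed step would reach by chance is therefore not a like comparison. These steps gave the reads per gene, the exact (Clopper-Pearson) intervals at 95% and the floors of 3 reads, which are approximate. Restricting lengths to transcripts linked to RefSeq was chosen after seeing the files. Ratios with an interval use RPKM without a pseudocount. The log2 scale used a pseudocount of 1 RPKM and the genes reaching 1 RPKM at either age, with a call at 2-fold, and understates differences of low genes. With 1 library per age no test was made.

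The 9 genes and all lists were chosen with earlier results of these data known. Named are the 9 genes, and in each other pathway list every gene called and up to 4 with the highest mean RPKM, plus genes at 0. A few genes of the wider list are not reported here and are in none of its counts. C5ar1, C4a, Saa3, Hpx, Cp, Gm13449, Gm20547, Crry-ps, Hspa1a, Hspa1b and the marker genes were named outside this rule, after the values were seen. Alternatives changed the pseudocount, filter, scaling and length. The procedure was also run on simulated whole reads at the same lengths used to recover them. Some deposited values are not whole reads, so that run does not test the intervals given here. Python 3.11.15, pandas 2.3.3 and scipy 1.17.1 were used.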

Additional observations from a re-analysis of the deposited data

How the results depend on the processing

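None of the 9 genes was called higher or lower at P28 under any setting run (0 in each direction with 5 genes, with all 9 when unfiltered, and with 3 at a filter of 5 RPKM). The median log2 ratio of the genes that passed was 0.22 as deposited, 0.23 and 0.19 with pseudocounts of 0.1 and 5, -0.15 at the same total RPKM, 0.31 with the median of all genes set to 0, 0.26 at the same upper quartile, 0.20 at the same total without the 10 most abundant genes, and 0.14 unfiltered. At the same total, 3 of 9 genes had log2 ratios above 0 rather than 6. C3 went to -0.15, Hc to 0.12 and Cd55 to -0.37. With the median set to 0, C3 had 0.31 and Hc 0.59. Hc had 0.55 at the same upper quartile and 0.48 without the 10 most abundant genes. With a pseudocount of 0.1, C4b went from 0.51 to 1.34, because its values are below 1 RPKM. That is beyond 2-fold, and C4b was not called there only because it did not pass the filter of 1 RPKM. The unfiltered setting kept the pseudocount of 1. Over all genes as deposited, 1.18% were called higher and 1.96% lower, so the counts of 0 say little about the 9 genes as a group. Longest transcripts or the union of exons in place of the mean length moved no interval across 1.

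Of the 10 other complement genes that reached 1 RPKM, 1 (C7) was called higher and 1 (Cd93) lower as deposited. The shares over all genes were 1.18% and 1.96%. In settings added after seeing the data, 0 were higher and 0 lower with a pseudocount of 5, 0 were higher at the same total (with or without the 10 most abundant genes), and 0 were higher with a filter of 5 RPKM. No paired analysis was possible because each age has 1 library, and for the same reason no library could be left out. Depth limits C2, Cfi and Cfb, whose intervals each include a ratio of 2 and, for C2 and Cfi, of 0.5.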

Other observations

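C1rl, which encodes a relative of the C1r protease, was named after its values were seen. It had 0.0755 RPKM from about 4 reads at P7 and 0.581 RPKM from 43.0 reads at P28, a ratio of 7.70 (2.80 to 29.6). Like C4b it stayed below 1 RPKM in both libraries. Cpn2, the other subunit of the carboxypeptidase of Cpn1, had 0.211 and 0.435 RPKM, a ratio of 2.06 (1.17 to 3.83), where Cpn1 had 1.87 (1.27 to 2.82). At the same total the intervals of Cpn2 and Cpn1 both include 1. C1s1 had a ratio of 2.28 (1.38 to 3.88), while C1ra, its partner in the C1 complex, had 1.43 (0.811 to 2.61). Within 100 kb of the chromosome 17 cluster the heat shock genes Hspa1a (0.753 and 4.004 RPKM) and Hspa1b (0.483 and 2.47 RPKM), near-identical copies, were called higher at P28. Over all genes 1.18% were called higher, and these neighbours were named after their values were seen. Hspa1b lost its call at the same total (log2 ratio 0.95). C4b, C2 and Cfb in the cluster had log2 ratios of 0.51, -0.02 and 0.14. These values come from 1 library per age.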
